A study of Mus musculus with 2 samples.

Results

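Inward rectifier (Kir) and ATP-sensitive potassium (KATP) channel genes were examined as a group of 7 genes fixed by symbol: Kcnj2, Kcnj12, Kcnj15, Kcnj8, Kcnj11, Abcc9 and Abcc8. The group was chosen with earlier results of these data known. The files list 55573 genes by identifier only, and 6 of the 7 could be matched through the identifiers of GENCODE vM1. The identifier given there for Kcnj11, which encodes Kir6.2, matched no listed gene, so that Kcnj11 was not analysed here, and a listing under another identifier could not be looked up. The RNA came from mesenteric arteries, which supply the intestine, of wild-type C57BL/6 mice aged 10 weeks. A control library was made from arteries in 5 mM K+ and a depolarized library from arteries in 60 mM K+; the labels state 60 min in either solution, and each condition is 1 library of pooled tissue from 2 mice. Differences between them have no replicate check, so that no p-value is printed. The question of the experiment was which genes respond when the artery wall is depolarized. All solutions contained tetrodotoxin to silence nerves, and connective tissue was removed before freezing. The methods also describe control tissue that was incubated without perfusion and cut distal to a ligature. The rest of the same arterial bed was then perfused with 60 mM K+. The study's results section instead describes perfusion with either solution for 60 min, and which account holds for these libraries is not stated. Segment, flow, time in solution and K+ therefore cannot be told apart.

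Kir channels pass K+ more easily into the cell than out of it, because polyamines and Mg2+ plug the pore from the inside when the membrane is depolarized. In small arteries, Kir2 channels hold the resting potential and open when external K+ rises modestly, which hyperpolarizes and relaxes the wall. KATP channels are assembled from equal numbers of Kir6 pore subunits and sulfonylurea receptors (SUR). Their opening depends on ATP and is raised by MgADP or protein kinase A. KATP channels thus tie the membrane potential of vascular muscle to metabolism and to vasodilator hormones. The vascular form pairs Kir6.1 (Kcnj8) with SUR2B, a splice form of Abcc9, while Kir6.2 (Kcnj11) with SUR1 (Abcc8) is the form of pancreatic beta cells.

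The genes of each KATP pair are neighbors in the genome. In GENCODE vM1, which is drawn on mm9 (NCBIM37), Kcnj8 lies on the minus strand of chromosome 6 from 142513459 to 142519876, and Abcc9 lies 16505 bp away on the same strand, from 142536382 to 142650794. Kcnj11, from 53352533 to 53355607 on the minus strand of chromosome 7, lies 4285 bp from Abcc8, from 53359893 to 53435403 on the same strand. In GENCODE vM1, 0 annotated genes lie between the members of either pair. The Kir2 genes are both on the plus strand of chromosome 11, Kcnj2 from 110927478 to 110938135 and Kcnj12 from 60836066 to 60884633. Kcnj15 is on chromosome 16 from 95479165 to 95521867 on the plus strand. Abcc9 overlaps an annotated gene on the opposite strand, 5330439B14Rik, from 142573931 to 142574242. No strand setting is stated for the counting, and reads of that stretch cannot be told apart.

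RefSeq promoter windows were found for 5 of the 7 genes, and the 250 bases before the start are shown for the genes whose values are contrasted below, the KATP neighbors Kcnj8 and Abcc9 and the Kir2 genes Kcnj2 and Kcnj12. Each window matched mm9 at 1 place on its chromosome and is written 5′ to 3′ on the strand of the gene. Capitals mark exact copies of the motifs searched.
Kcnj8 (chr6:142520135-142520384, mm9, minus strand): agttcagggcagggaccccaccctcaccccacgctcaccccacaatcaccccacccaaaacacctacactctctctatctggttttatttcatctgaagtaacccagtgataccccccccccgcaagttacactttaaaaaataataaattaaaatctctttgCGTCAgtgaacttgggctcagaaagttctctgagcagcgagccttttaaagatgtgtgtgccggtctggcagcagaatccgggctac
Abcc9 (chr6:142650795-142651044, mm9, minus strand): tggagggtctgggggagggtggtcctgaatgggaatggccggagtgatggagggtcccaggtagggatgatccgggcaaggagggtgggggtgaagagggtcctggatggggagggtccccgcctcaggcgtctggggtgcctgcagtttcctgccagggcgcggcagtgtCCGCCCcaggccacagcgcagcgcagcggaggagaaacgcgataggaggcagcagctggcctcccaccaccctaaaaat
Kcnj2 (chr11:110927228-110927477, mm9, plus strand): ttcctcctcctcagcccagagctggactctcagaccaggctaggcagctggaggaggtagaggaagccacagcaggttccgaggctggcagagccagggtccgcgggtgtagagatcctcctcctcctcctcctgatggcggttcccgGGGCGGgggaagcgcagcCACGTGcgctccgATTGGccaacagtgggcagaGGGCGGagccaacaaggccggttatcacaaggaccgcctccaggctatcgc
Kcnj12 (chr11:60879056-60879305, mm9, plus strand): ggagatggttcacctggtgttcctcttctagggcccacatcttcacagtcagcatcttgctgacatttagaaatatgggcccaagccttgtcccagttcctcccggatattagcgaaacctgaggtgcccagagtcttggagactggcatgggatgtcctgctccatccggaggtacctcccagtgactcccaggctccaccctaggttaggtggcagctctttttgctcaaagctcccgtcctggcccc
The motifs, searched on both strands, were the full cAMP response element (CRE) TGACGTCA, the shorter CRE motif TGACG, which the full one contains, the AP-1 site TGANTCA, the E-box CACGTG, the TATA box TATAAA, the GC box GGGCGG, the CCAAT box and the CArG box, searched by its consensus. The CRE is the site bound by CREB, the factor that the study followed. The full CRE was found in 0 of the 5 windows, compared with 1.55% of 32851 promoter windows of the same length. The shorter CRE motif occurred in Kcnj8 alone of the 5, in the opposite orientation, 87 to 83 bases before the start, and 17.8% of all windows hold it. In Kcnj2 there were 2 GC boxes, 1 E-box CACGTG from 84 to 79 bases before the start and 1 CCAAT box, which 32.7%, 6.02% and 33.8% of all windows hold. The Abcc9 window held 1 GC box, and those of Kcnj12 and Kcnj15 held none of the motifs. GC content was 49.2% for Kcnj8, 66.8% for Abcc9, 65.6% for Kcnj2, 56.0% for Kcnj12 and 53.2% for Kcnj15. The RefSeq start of Kcnj8 lies upstream of the start in GENCODE vM1, and that of Kcnj12 lies within the gene as GENCODE vM1 draws it, so that its window is not upstream of every annotated transcript. These are matches of letters in 1 window per gene and show no binding.

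The control library held 10480918 counted reads and the depolarized library 11289598. Log2(fold-change) compares depolarized with control reads, positive where 60 mM K+ was higher, after scaling by the trimmed mean of M-values (TMM). Its 95% exact (Clopper-Pearson) interval, from the split of the gene's reads between the libraries, covers counting error only. Scaling by total reads instead lowers every log2(fold-change) by 0.21. Levels are given as the deposited FPKM, fragments per kilobase of length and per 1000000 fragments, with exact Poisson intervals, because only values per length can be compared between genes. The FPKM are scaled by total counts and not by TMM, so that they serve to compare genes within a library.

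In the control library, transcripts of the vascular KATP channel and of Kir2.2 were the most abundant of the 6. Abcc9 stood at 8.46 FPKM (95% counting interval 7.74 to 9.22), Kcnj12 at 8.02 FPKM (6.95 to 9.20) and Kcnj8 at 6.06 FPKM (5.14 to 7.10). The intervals of neighbors in this order overlapped. Kcnj2 followed at 1.24 FPKM (0.972 to 1.57) and Abcc8 at 0.971 FPKM (0.593 to 1.50), apart from the first 3 and overlapping each other. Kcnj15, which encodes Kir4.2, was lowest at 0.222 FPKM (0.0894 to 0.458). In the depolarized library the level of Kcnj8 was first, at 8.02 FPKM (6.99 to 9.15), ahead of Abcc9 at 7.38 FPKM (6.73 to 8.06) and Kcnj12 at 5.82 FPKM (4.95 to 6.80). Here Kcnj8 and Abcc9 overlapped and so did Abcc9 and Kcnj12, while Kcnj8 lay above Kcnj12. Kcnj2 at 1.77 FPKM, Abcc8 at 1.40 FPKM and Kcnj15 at 0.118 FPKM kept their places at the bottom. None was an abundant transcript: 14829 genes had 10 or more reads over both libraries (the genes tested), and of these 54.4% had a higher FPKM than Abcc9 in the control library and 82.8% a higher FPKM than Kcnj2. The order rests on the lengths behind the deposited FPKM. For Abcc8 this length was 1965 bases, compared with 4952 bases of merged exons in GENCODE vM1, with which its level was 0.385 FPKM in control and 0.555 FPKM in depolarized arteries. With merged exons, Kcnj12 at 7.01 FPKM and Kcnj8 at 6.67 FPKM came before Abcc9 at 6.48 FPKM in the control library.

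**Figure D1:**
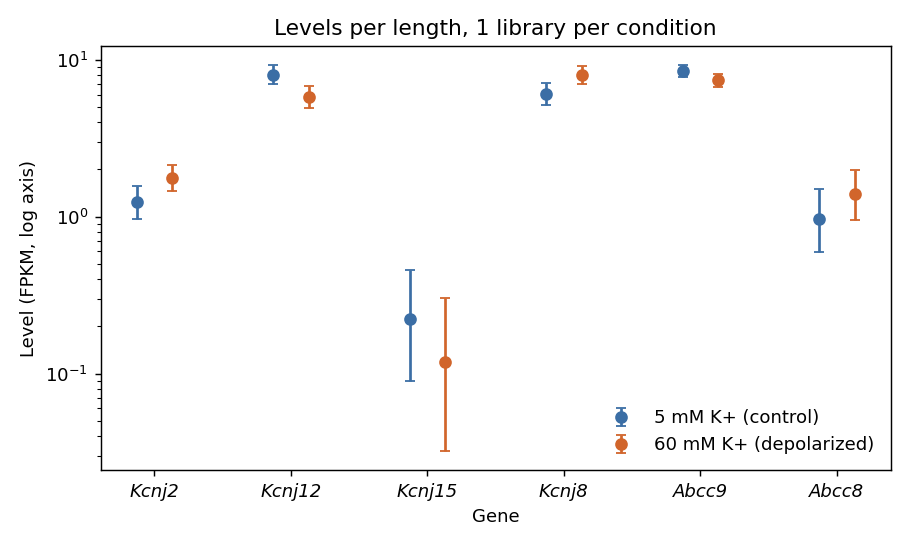
Level of each channel gene in FPKM on a log axis, in the 5 mM K+ library (blue) and the 60 mM K+ library (orange), 1 library each, with 95% Poisson intervals as bars, which cover counting error only. Abcc9, Kcnj12 and Kcnj8 lie between 5.82 and 8.46 FPKM in both libraries, and Kcnj15 lies lowest, at 0.222 and 0.118 FPKM. The FPKM are on the total-count scale, which lowers every log2(fold-change) by 0.21 from its value with TMM scaling.

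Between the libraries, 0 of the 6 genes had an absolute log2(fold-change) above 1, the fold part of the study's threshold. The study joined it to a q-value, which was not applied here, so that the shares of all genes given next count every gene past the fold alone. Over all 14829 genes tested, 5.54% lay above 1 and 5.86% below -1. For Kcnj2 and Kcnj8 the counting interval lay above 0, which is 2 of 6 genes (33.3%), near the 25.0% of all tested genes for which it did. For 0 of the 6 genes it lay below 0, compared with 20.3% of all tested genes. All 6 genes had at least 10 reads, and their median log2(fold-change) was 0.31, compared with -0.0047 for all genes tested.

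Kcnj2 encodes Kir2.1, the pore that carries the K+-activated inward rectifier current in small arteries. It had 71 control and 109 depolarized reads, more in 60 mM K+. Its log2(fold-change) of 0.72 (counting interval 0.28 to 1.17) is a 1.65-fold higher scaled count (1.21 to 2.25), and 8.97% of tested genes had a higher log2(fold-change). Kcnj12 encodes Kir2.2, a close relative that can share a tetramer with Kir2.1. Its reads were 202 in the control and 158 in the depolarized library, with a log2(fold-change) of -0.25 (-0.56 to 0.05). With total-count scaling its log2(fold-change) was -0.46 (-0.77 to -0.15), so that whether its counting interval held 0 depended on the scaling, while that of Kcnj2 stayed above 0 at 0.51 (0.07 to 0.96). Within a library the ratio of these genes does not depend on scaling. Per length, Kcnj2 stood at 0.155 of Kcnj12 (0.117 to 0.204) in control arteries and at 0.305 (0.236 to 0.391) in depolarized arteries. The ratio was thus 1.96 times as high in the depolarized library (1.34 to 2.88), and Kcnj12 remained the higher of both genes. Kcnj2 made up 13.4% of the pair per length (10.5% to 17.0%) in the control and 23.4% (19.1% to 28.1%) in the depolarized library. Such ratios were not computed for pairs of other genes, so that how common a difference of this size is was not examined.

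Kcnj8 encodes Kir6.1, the pore of the vascular KATP channel, and had 153 control and 218 depolarized reads. Its log2(fold-change) of 0.61 (counting interval 0.31 to 0.92) is a 1.53-fold higher scaled count (1.24 to 1.89), and 11.1% of tested genes had a higher log2(fold-change). With total counts its log2(fold-change) was 0.40 (0.10 to 0.71). Abcc9 encodes SUR2, the regulatory subunit that binds nucleotides and K+ channel openers. It was the most deeply counted of the 6 genes, with 512 control and 481 depolarized reads, nearly as many in each, and its log2(fold-change) was 0.01 (-0.17 to 0.19). At this depth a change of Abcc9 beyond 0.888-fold or 1.14-fold lay outside the counting interval. With total counts its log2(fold-change) was -0.20 (-0.38 to -0.01). On that scale the counting interval lay below 0 for Kcnj12 and Abcc9, 2 of 6 genes, compared with 38.4% of all tested genes, and above 0 for Kcnj2 and Kcnj8, compared with 13.6%. Reads per gene do not separate the splice forms SUR2A and SUR2B.

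The neighbors Kcnj8 and Abcc9 therefore differed in their ratios. Per length, Kcnj8 stood at 0.717 of Abcc9 (0.594 to 0.860) in the control and at 1.09 of Abcc9 (0.922 to 1.28) in the depolarized library. The ratio was 1.52 times as high in the depolarized library (1.18 to 1.95), whatever the scaling or the length used. The ratio within 1 library does depend on the length: Kcnj8 made up 41.7% of the pair in the control and 52.1% in the depolarized library with the deposited lengths, and 50.7% and 61.0% with merged exons. How often pairs of other genes differed as much between the libraries was not examined. Among single genes an interval off 0 was common, above 0 for 25.0% and below 0 for 20.3% of all tested genes with TMM scaling. These ratios are amounts of transcript, and subunit protein was not measured in these libraries.

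Abcc8 encodes SUR1, the sulfonylurea receptor of beta cells and neurons. It had 20 control and 31 depolarized reads, with a log2(fold-change) of 0.73 (-0.12 to 1.62), whose counting interval held 0. Per length it made up 10.3% of the SUR genes (6.50% to 15.2%) in the control and 15.9% (11.3% to 21.4%) in the depolarized library, or 5.61% and 8.93% with merged exons. The ratio of Abcc8 to Abcc9 was 1.65 times as high in the depolarized library, with a counting interval of 0.897 to 3.10 that held 1. Kcnj15 had 7 control and 4 depolarized reads, a log2(fold-change) of -0.71 (-2.93 to 1.27). With 11 reads in all, its counting interval ran from 0.132-fold to 2.41-fold, and a difference was not detectable at this depth.

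**Figure D2:**
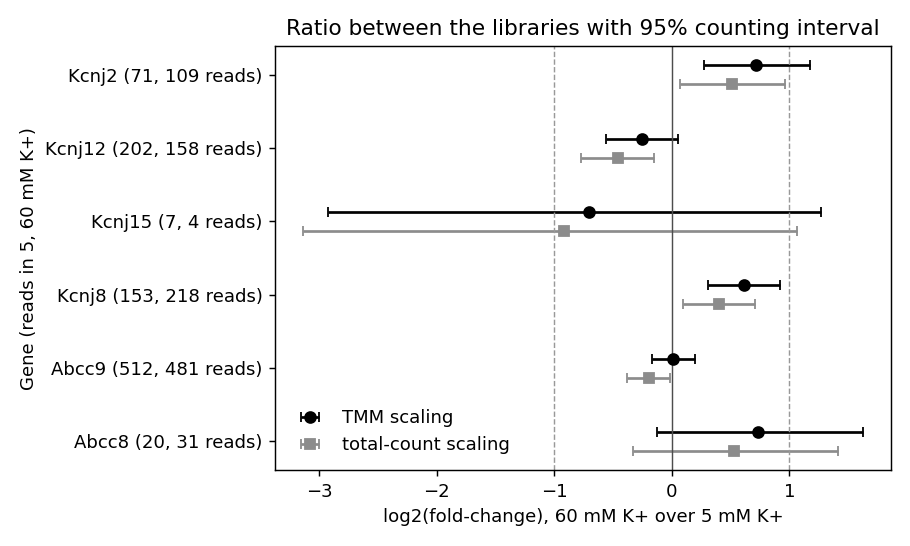
Log2(fold-change) of 60 mM K+ over 5 mM K+ for each channel gene, with TMM scaling (black circles) and total-count scaling (gray squares), bars showing 95% counting intervals and dashed lines the threshold of 1 in either direction. The TMM intervals of Kcnj2 (0.28 to 1.17) and Kcnj8 (0.31 to 0.92) lie above 0, and that of Kcnj15 is the widest.

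**Figure D3:**
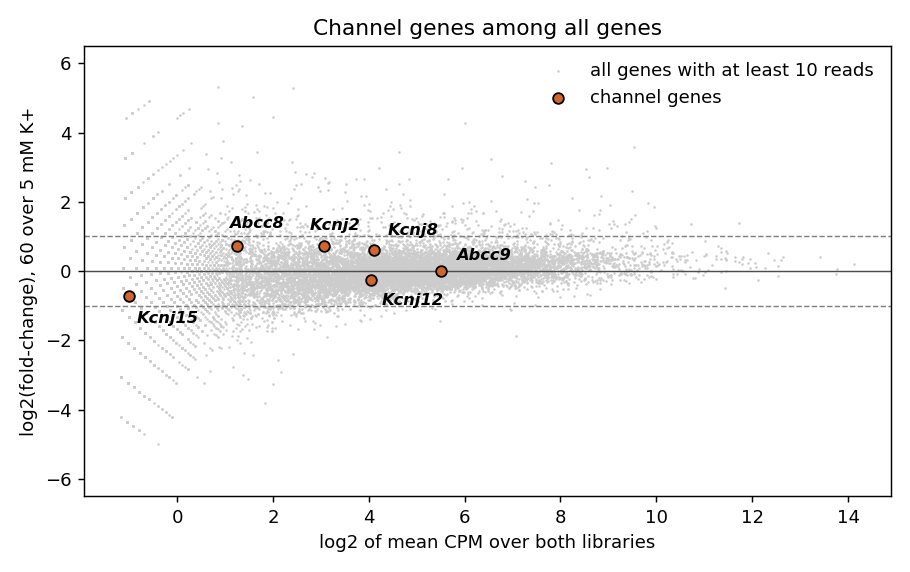
Log2(fold-change) with TMM scaling against the log2 of mean CPM (reads scaled to a library of 1000000) for the 14829 genes with at least 10 reads (gray) and the 6 channel genes (orange); 1 gene outside -6.5 to 6.5 is not drawn. All 6 channel genes lie between the dashed lines at -1 and 1.

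**Figure D4:**
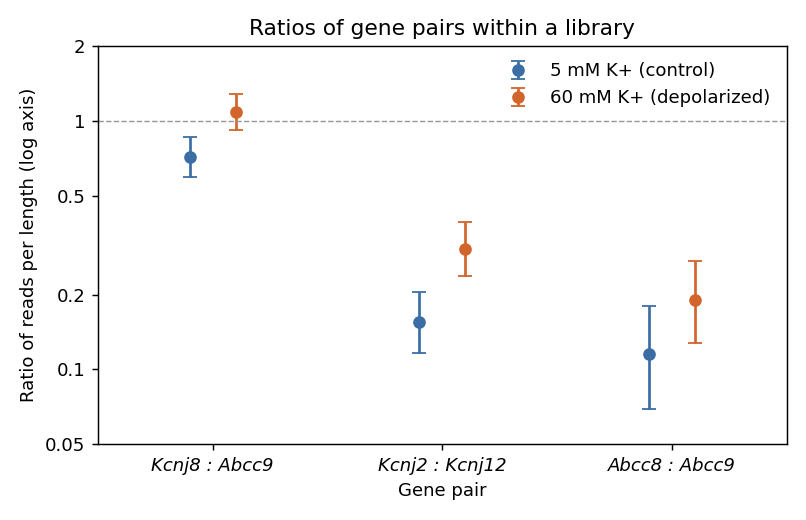
Ratio of reads per length of gene pairs within the 5 mM K+ library (blue) and the 60 mM K+ library (orange), on a log axis with 95% counting intervals. Kcnj8 to Abcc9 stands at 0.717 and 1.09, Kcnj2 to Kcnj12 at 0.155 and 0.305, and for Abcc8 to Abcc9 the intervals of the libraries overlap.

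The rest of the Kir family had few reads or none. Of 10 other Kir genes, 7 had 0 reads in both libraries: Kcnj1 (the renal channel ROMK), Kcnj3, Kcnj5, Kcnj6 and Kcnj9 (the G protein-gated Kir3 channels), Kcnj13 and Kcnj16. A count of 0 allows up to 3 reads, or 0.266 CPM in the control and 0.286 CPM in the depolarized library with TMM scaling. Kcnj10, a glial channel that encodes Kir4.1, had 13 and 8 reads, with a log2(fold-change) of -0.60 (-2.08 to 0.78). Kcnj4 had 4 and 4 reads, and Kcnj14 had 2 and 1.

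Related genes were taken from 6 lists that hold these other Kir genes and the partners and regulators of the channels. Of 60 genes with at least 10 reads, 4 (6.67%) lay above a log2(fold-change) of 1, compared with 5.54% of all tested genes, and 0 lay below -1. The counting interval lay above 0 for 24 (40.0%) and below 0 for 11 (18.3%), compared with 25.0% and 20.3% of all tested genes. Under total-count scaling these became 15 and 24 genes, compared with 13.6% and 38.4% of all tested genes. With that scaling 1 gene (Lin7b) stayed above 1, and the medians of the cAMP and scaffold lists given next turned negative. The lists were chosen with earlier results of these data known. Intervals narrow with read depth, which was not matched between the lists and all genes, so that these shares are descriptive only.

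Hormones that raise cAMP open KATP channels through protein kinase A. The list of this cAMP and protein kinase A arm had 21 genes tested, with a median log2(fold-change) of 0.14. The counting interval lay above 0 for 10 and below 0 for 4 genes (7 and 6 with total counts). Past 1 were Vipr1, a receptor for vasoactive intestinal peptide, at 1.06 (0.86 to 1.26) on 327 and 635 reads, and Ptgir, the prostacyclin receptor, on 405 and 777 reads at 1.04 (0.87 to 1.22). With total counts both fell short of 1. The lowest was Adcy3, an adenylyl cyclase gene, whose log2(fold-change) was -0.78 (-1.01 to -0.55) on 457 and 248 reads. Adcy5, the cyclase gene with the most reads on the list, stood at 0.35 (0.32 to 0.39) on 14277 and 17020 reads.

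Polyamines are the particles that plug Kir pores, and 11 genes of their metabolism were tested. Of these, 4 had a counting interval above 0 and 1 below (4 and 5 with total counts). Odc1, the rate-limiting enzyme of polyamine synthesis, had 1594 control and 3303 depolarized reads, and its log2(fold-change) of 1.15 (1.07 to 1.24) had an interval wholly above 1, though with total counts the value itself lay below 1. Oaz1, the antizyme that inhibits ornithine decarboxylase, had the most reads and a log2(fold-change) of 0.31 (0.25 to 0.37). The lowest was Amd2 at -0.48 (-2.26 to 1.17) with 9 and 6 reads. The median log2(fold-change) of the list was -0.04.

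Kir channels need the membrane lipid PIP2 to open. Of 10 genes of PIP2 supply and hydrolysis, the counting interval lay above 0 for 2 and below 0 for 4 (2 and 7 with total counts). Their median log2(fold-change) was -0.13. They ran from Pi4kb, a lipid kinase gene, at -0.33 (-0.57 to -0.10) to Plcd1, a phospholipase C gene, at 0.68 (0.56 to 0.79). Plcb4 had the most reads, with a log2(fold-change) of 0.03 (-0.07 to 0.13).

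Of 10 scaffold genes, 3 had a counting interval above 0 and 2 below (0 and 6 with total counts), with a median log2(fold-change) of 0.05. Lin7b lay at 2.10 on 2 and 8 reads, with an interval of -0.22 to 5.37 that held 0. Cav3, a caveolin gene, was lowest at -0.47 (-0.86 to -0.08), and Flna, which encodes filamin A and had the most reads, was at -0.07. Lin7a had 0 reads in both libraries.

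Adenylate and creatine kinases set the ATP and ADP that KATP channels sense. Of 7 such genes tested, 5 had a counting interval above 0 and 0 below, with a median log2(fold-change) of 0.34. With total counts, 2 lay above 0 and 0 below, with a median of 0.13. Over all tested genes, the interval lay above 0 for 25.0% with TMM scaling and for 13.6% with total counts. Ckb, the creatine kinase gene with the most reads, stood at 0.34 (0.30 to 0.38) on 9789 and 11562 reads. Ckm was the highest at 0.88 (0.06 to 1.73), on 21 and 36 reads, and Ak1 the lowest at 0.13 (-0.05 to 0.30). Ckmt1 had 0 reads in both libraries.

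The labelled tissue carried its markers, and markers of several other cell types had reads. In bulk tissue, fewer cells of a type and less RNA per cell cannot be told apart. Of all tested genes, the counting interval lay above 0 for 25.0% and below 0 for 20.3% with TMM scaling. With total counts these shares were 13.6% and 38.4%. Intervals of deeply read markers are narrow, so that the counts of marker intervals off 0 are descriptive only. All 8 smooth muscle markers were detected, led by Acta2 with 187183 and 199779 reads. Their summed level, with TMM scaling, was 36884 CPM in the control and 40487 CPM in the depolarized library, 1.10-fold, with the counting interval above 0 for 5 and below 0 for 3. With total counts the direction turned, to 0.950-fold, with 2 above and 5 below 0. The 8 pericyte markers, of mural cells that also use Kir6.1 and SUR2, summed to 1760 and 1658 CPM, 0.942-fold (0.815-fold with total counts), with 1 above and 5 below 0. The part of these mural cells in the value of Kcnj8, at 1.53-fold, was not tested. The 8 endothelial markers, of cells that also carry Kir2.1, summed to 3147 and 4278 CPM, 1.36-fold, with 6 above and 1 below 0. With total counts this was 1.18-fold, with 4 above and 1 below 0. Pecam1, with the most reads, had a log2(fold-change) of 0.50. The part of the endothelial reads in the value of Kcnj2, at 1.65-fold, was not tested.

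For Abcc8, the islet markers had 5 reads in each library over 8 genes, with Ins1, Gcg, Iapp and Pdx1 at 0 in both and Ins2 at 3 and 2 reads. Pancreatic acinar markers, in contrast, summed to 158 reads in the control and 493 reads in the depolarized library, with Prss1 and Amy2a5 at 0 in both and Cpb1, with the most reads, at 98 and 138. The 8 neuron markers summed to 102 and 131 CPM, 1.29-fold (1.11-fold with total counts). Of these, Snap25, Elavl4 and Th were at 0 in both libraries and Uchl1, with the most reads, was at 583 and 770. Uchl1, at 51.7 and 73.3 CPM, and Stmn2, at 49.0 and 55.7 CPM, made up nearly all of these sums. The part of acinar or nerve tissue in the reads of Abcc8 was not tested. Cardiac and skeletal muscle markers, of tissues rich in Kir2.2 and SUR2A, summed to 49.3 and 52.8 CPM, 1.07-fold (0.927-fold with total counts). Acta1, with the most reads at 439 and 412, made up 39.0 and 39.2 CPM of these sums, which thus mostly follow 1 gene. Tnnt2 had 59 and 78 reads and Myh6 had 8 and 9, with Myl2 and Myh4 at 0 in both. Among the other cell types, Schwann cell markers summed to 1.17-fold of their control level (1.01-fold with total counts, most reads Pmp22). Fibroblast markers summed to 0.919-fold (0.796-fold, Col1a2), macrophage markers to 0.909-fold (0.786-fold, Lyz2) and adipocyte markers to 0.750-fold (0.649-fold, Fabp4). Fabp4 made up 94.1 and 90.6 CPM of the adipocyte sums of 192 and 144 CPM. Over the 7 adipocyte genes tested the median log2(fold-change) was -0.90, with 3 below -1 and 1 above 1. The part of these cell types in the values of the 6 channel genes was not tested.

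**Figure D5:**
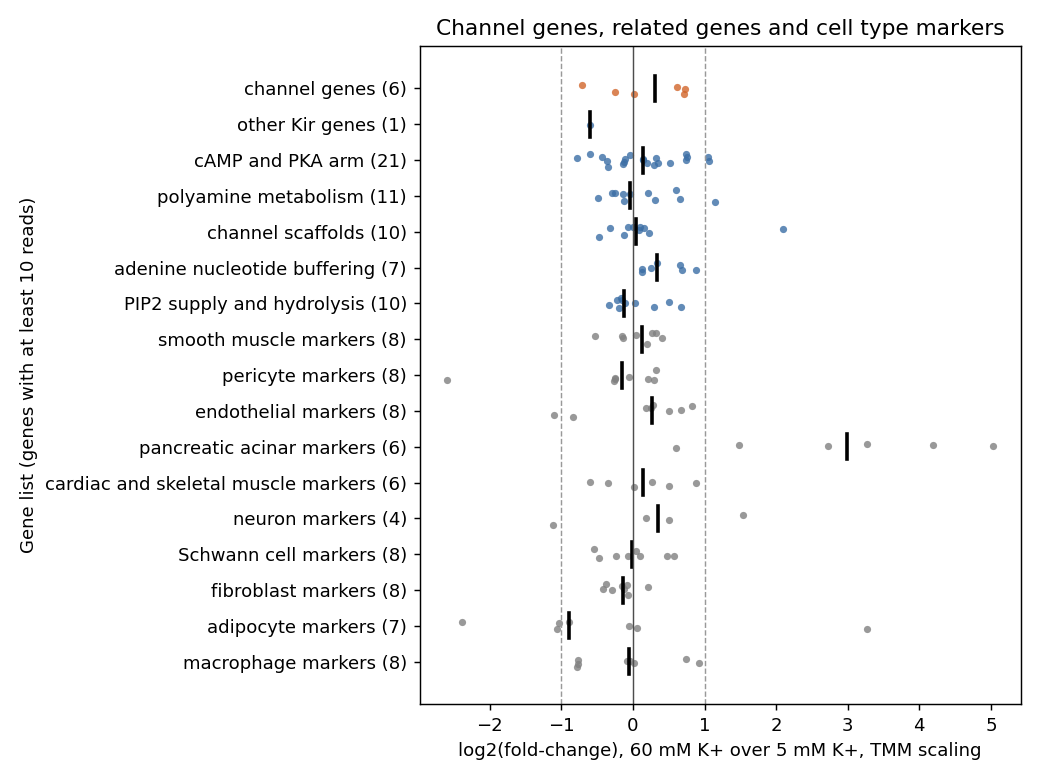
Log2(fold-change) with TMM scaling of each gene with at least 10 reads, for the channel genes (orange), the lists of related genes (blue) and the cell type markers (gray), with the number of genes in parentheses and a black bar at the median. The 6 channel genes lie between -0.71 and 0.73, the pancreatic acinar markers lie mostly above 1, and the islet list is not drawn because none of its genes had 10 reads.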

How the data were processed

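RNA was poly-A selected, and by the study's methods the authors aligned reads to mm9 with TopHat2. The submitters' processing notes name TopHat2 2.0.12, HTSeq 0.6.1 and edgeR 3.0.8, and list both mm8 and mm9 without saying what each was used for. The files also hold identifiers that GENCODE vM1 lacks, so that the gene models and lengths behind the deposited values may differ from those whose coordinates and merged exons are given here. The annotation release and strand setting were not given in the sources used here. The authors deposited raw read counts per gene and FPKM values; counts divided by FPKM gave 1 length per gene in both libraries, so that the deposited FPKM were scaled by total counts.

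Symbols came from GENCODE vM1, which names 32601 of the listed genes; 167 of 168 genes of the members and lists matched, Ncmap and Adgre1 through RefSeq synonyms. TMM factors (edgeR 4.0.16, R 4.3.3) were 1.07 for the control and 0.930 for the depolarized library. A count of 0 entered as 0.5 reads. Intervals are 95% and exact; those of ratios between gene pairs are conditional (scipy 1.17.1). Reads are not independent molecules, but the intervals treat them as independent and may be too narrow even for counting error. Spread between animals is not covered. The study's DEGSeq test, and tests that need replicates, were not run. The intervals were tried on simulated Poisson reads, the counting model they assume, which cannot test them against spread between animals.

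The members and lists were chosen with earlier results of these data known. Genes were named by rule: all members, other Kir genes with at least 10 reads, of each further list the gene with the most reads, the highest, the lowest and those past 1 or -1, and of marker lists the gene with the most reads and those at 0. Kcnj4, Kcnj14, Stmn2, Tnnt2, Myh6 and the other Kir and list genes at 0 were named after their values were seen. The alternatives included scaling by totals, by upper quartiles and by DESeq2 1.42.0 size factors, FPKM, a prior count, other minimum counts, 99% intervals and merged exon lengths. Promoter sequences are from RefSeq (GRCm38.p6) and were placed on mm9 by exact match.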

Additional observations from a re-analysis of the deposited data

How the results depend on the processing

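No paired analysis was possible because there was 1 library in each condition, which also leaves no library to omit. The share of Kcnj8 among Kcnj8 and Kcnj11 was not run because Kcnj11 was not analysed here. The 99% interval and the threshold on the nearest interval end for related genes were added after the data were seen.

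For Kcnj2, Kcnj12, Kcnj15, Kcnj8 and Abcc8, log2(fold-change) stayed within its counting interval and kept its sign under the 3 other scalings, the 3 FPKM settings and the prior count of 2. Abcc9 moved from 0.01 to -0.20 with total counts and with FPKM, to -0.19 with a pseudocount of 0.1 and to -0.18 with a pseudocount of 1; these settings share the total-count scale, which lowers every value by 0.21. It was -0.03 with upper-quartile and -0.0010 with median-of-ratios scaling, so that its sign was not fixed. Members with a counting interval below 0 went from 0 to 2 with total counts, and the count above 0 stayed at 2 under the scalings and with 99% intervals. Among related genes, total counts gave 1 gene past 1, 15 intervals above 0 and 24 below 0, compared with 4, 24 and 11. With the threshold on the nearest interval end, 1 gene was past 1, and with no minimum beyond 1 read, 2 genes were past -1, compared with 0. With no minimum, 14.4% of all genes lay above 1 and 11.7% below -1.

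Shares within a library depended on length. Without length, Kcnj8 made up 23.0% and 31.2% of the reads of Kcnj8 and Abcc9, in control and depolarized arteries, Kcnj2 26.0% and 40.8% of the Kir2 pair, and Abcc8 3.76% and 6.05% of the SUR pair. With merged exons the shares were 50.7% and 61.0% for Kcnj8 and 5.61% and 8.93% for Abcc8. The levels of Abcc9 became 6.48 and 5.65 FPKM and those of Abcc8 0.385 and 0.555 FPKM.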
